A study of Mus musculus with 4 samples.

Results

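Expression of 10 Notch pathway genes was followed in mouse hepatic stellate cells given interleukin-17A (IL17A), medium from adipose stem cells, or both. They were the receptors Notch1, Notch2 and Notch3, the ligands Jag1 and Dll1, and the transcriptional targets Hes1, Hey1, Hey2, Heyl and Nrarp. They were chosen by name, as every probe whose gene name in the array files is one of these symbols, which gave 16 of 41174 probes and 10 of 26704 genes. All cells were IMS/N, a line of hepatic stellate cells from normal 129/Sv mice that was immortalized by SV40 infection, so every group carries that virus and stands for 1 line. The 4 groups were cells with IL17A and ADSC medium, cells with ADSC medium, cells with IL17A, and untreated cells, with 1 array per group. IL17A was recombinant murine protein. ADSC medium came from cultures of adipose-derived stem cells taken from the subcutaneous inguinal fat of male C57BL/6J mice 8 to 10 weeks old, and the doses and times were not given in the sources used here.

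Notch receptors are membrane proteins that are cut when a Jagged or Delta-like ligand on a neighbouring cell binds them. The freed inner part enters the nucleus, joins the DNA-binding protein Rbpj and Mastermind, and turns on targets such as the Hes and Hey repressors. In the liver, hepatic stellate cells are the main source of scar collagen, and Notch signalling has been studied in their activation to myofibroblasts. IL17A is a cytokine of T helper 17 cells that acts through NF-kB and RNA-stabilizing proteins on many cell types.

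Signals are given as log2 of the background-corrected intensity after quantile normalization, and a difference is the log2 value of the first-named group minus that of the second. With 1 array per group no difference could be tested, and no p-value is given. A gene was called higher or lower where the difference reached 2-fold and the brighter array was well above background. A dim side was given its measured value or the array's limit, the lowest signal there that counted as well above background, whichever was higher, and such a fold is printed as "at least". Probes spotted at least 5 times, 245 in number, gave the technical spread of a difference, with an SD of 0.30 below a log2 level of 5, 0.14 between 5 and 7 and 0.085 above 7, and where the 2 sides lay in different classes the spreads of single spots were combined. This spread covers single spots on 1 array and not separate cultures, and it is too wide for means of repeated spots. Per the file headers, slide 2 held both arrays with ADSC medium and slide 1 the arrays without it, so the effect of ADSC medium and that of the slide cannot be told apart, while IL17A was compared within a slide. In RNA from whole cultures, fewer cells expressing a gene and less RNA per cell cannot be told apart either.

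Between 58.1% and 60.5% of spots were well above background per array, and none was saturated. Of 15 stellate markers, 9 were well above background on all 4 arrays, among them Vim, Acta2, Col1a1 and Pdgfrb, and Reln, Hand2 and Gfap were on none. With both agents against untreated cells, 2 of 12 measured were called higher (Timp1, Lrat) and 4 lower (Col1a1, Col1a2, Col3a1, Pdgfrb). Among all genes 3.38% were called higher and 4.28% lower. With IL17A against untreated cells, Cygb was called lower. Lrat, the retinol-esterifying enzyme of quiescent stellate cells, was well above background only on the array with IL17A and ADSC medium (log2 3.84, against 0.25 to 0.40 on the others), as was the leukocyte marker Ptprc (3.73, against 0.20 to 0.28). None of 5 hepatocyte markers on the array was well above background in any group. Of the markers of macrophages, endothelium and bile duct cells, 2 of 5 (Cd68, Csf1r), 2 of 6 (Kdr, Stab2) and 3 of 5 (Krt7, Krt19, Sox9) were well above background on all 4 arrays. The summed bile duct markers stood at log2 9.25 with IL17A and ADSC medium, 10.16 with ADSC medium, 9.15 with IL17A and 10.01 in untreated cells, so they were lower in both groups with IL17A. The summed macrophage markers stood at 6.91, 6.68, 6.45 and 6.11 in the same order. Of these, Csf1r read 4.29, 3.35, 4.56 and 3.15 and was called higher with IL17A than in untreated cells (1.41), as Dll1 was. Cd68, the brightest of them, read 6.41, 6.46, 5.91 and 5.82 and was not called in that comparison. Adgre1 and Clec4f were not well above background on any array. The part of these markers in the results was not tested. All 7 genes listed as IL17A targets (Il6, Cxcl1, Cxcl5, Lcn2, Saa3, Nfkbiz, Zc3h12a) were called higher with IL17A, both with and without ADSC medium. Among all measured genes 2.86% and 2.17% were called higher in these comparisons. The list was chosen with earlier results of these data known, so it is no independent check of the treatment.

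Of the 10 Notch genes, 6 were well above background on all 4 arrays (Notch1, Notch2, Notch3, Jag1, Hes1, Hey1). Dll1 was so on the 2 arrays with IL17A, and Hey2, Heyl and Nrarp were on none. Among the measured members, only Dll1 and Hes1 passed 2-fold in any comparison. Without ADSC medium, IL17A gave 1 higher (Dll1) and 0 lower of 7 measured, where 2.17% of all measured genes were called higher and 2.29% lower, 4.46% in either direction. With ADSC medium present, IL17A gave 0 of 7, against 2.86% higher, 1.82% lower and 4.68% either way among all genes. ADSC medium gave 1 higher (Hes1) of 6 measured against untreated cells, where 2.45% of all genes were called higher, 2.97% lower and 5.41% either way. On top of IL17A, ADSC medium gave 1 higher (Hes1) and 1 lower (Dll1) of 7, with 3.22%, 3.11% and 6.33% either way among all genes. Cells with both differed from untreated cells by 2-fold in 0 of 7, where 3.38% were called higher, 4.28% lower and 7.66% either way. With 7 members or fewer, 1 call moves a share of them by more than any of these percentages. Median differences of the measured members in these 5 comparisons were -0.25, 0.06, 0.36, 0.30 and 0.57, beside 0.000, -0.030, 0.039, 0.021 and 0.030 over all genes.

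**Figure D1:**
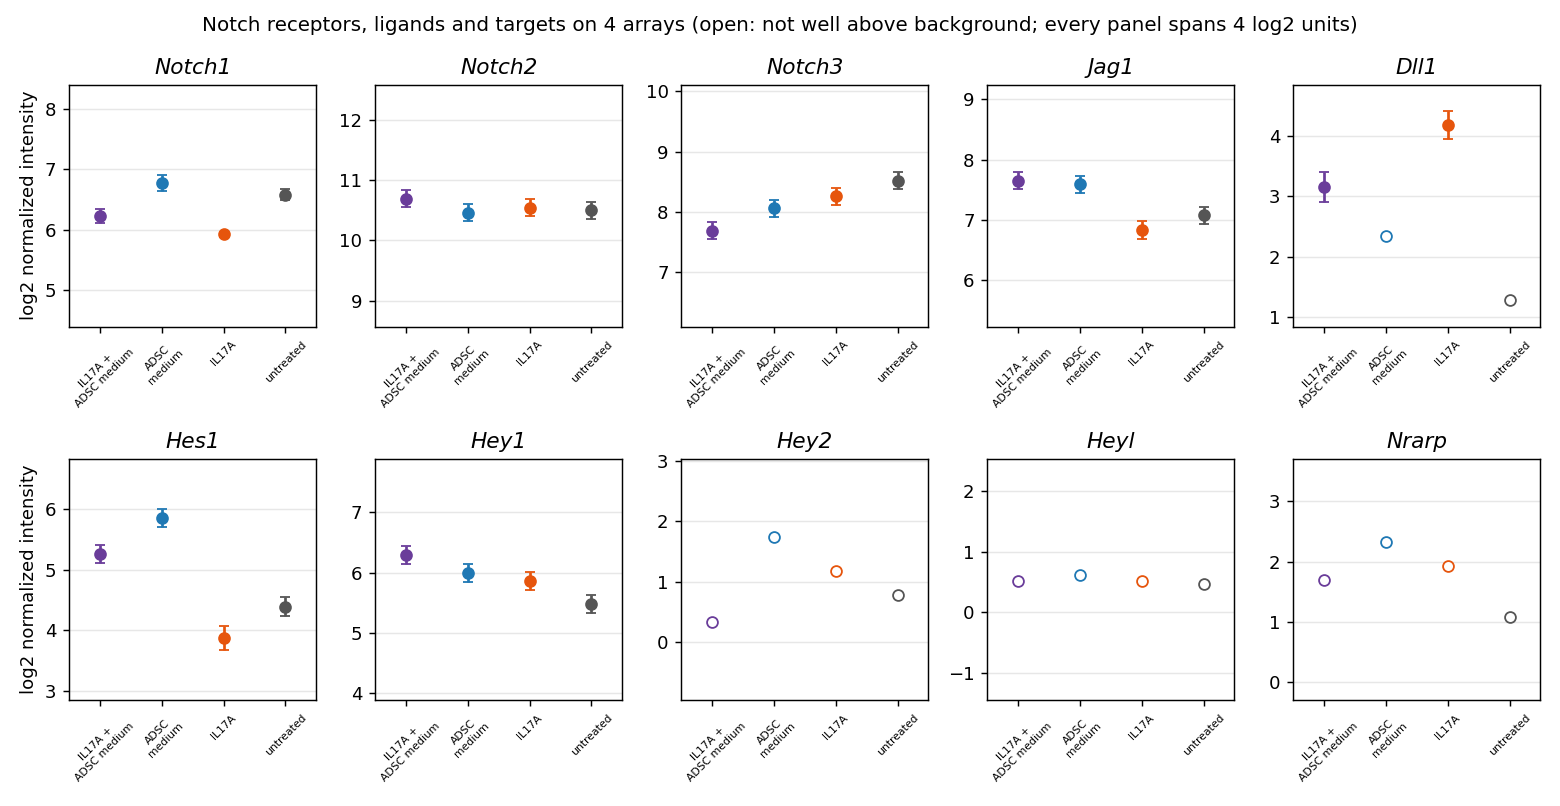
Log2 normalized intensity (vertical axis) of the 10 Notch genes on the 4 arrays (horizontal axis), taken from the probe with the highest mean, with error bars for the technical SD of filled points (10 spots for Notch1 and Dll1, the scanner software's error otherwise). Hes1 is at 5.26 and 5.86 on the arrays with ADSC medium and at 3.87 and 4.39 on those without, while open points for Hey2, Heyl and Nrarp are not well above background.

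The sequences of 3 probes are shown: the only probe behind the Hes1 values, and the probes of Jag1 and Notch2 that read apart from the brightest probe of their gene. They are taken to lie in coding sequence from general knowledge of these genes, since no annotation of the build was used here, and each has a sense reading frame with no stop. All are 60 bases, written 5′ to 3′ as on the array, with mm9 positions from the array files, and no base is singled out by capitals. The Hes1 probe lies at chr16:30065983-30066278 on the plus strand and spans 296 bases of genome, so it is split in the genome. The Jag1 probe lies at chr2:136908942-136909001 on the minus strand, and the Notch2 probe at chr3:97951205-97951264 on the plus strand.
Hes1: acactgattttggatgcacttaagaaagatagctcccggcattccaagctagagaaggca
Jag1: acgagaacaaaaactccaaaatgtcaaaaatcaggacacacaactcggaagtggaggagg
Notch2: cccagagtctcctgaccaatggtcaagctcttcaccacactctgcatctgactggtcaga

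Among the receptors, Notch1 was lower in both groups with IL17A than in their counterparts without it, Notch3 was lowest in cells with both agents, and Notch2 differed least between groups. Notch1, a widely expressed receptor, was read by a probe spotted 10 times (chr2:26314772-26314830, minus strand). Its mean log2 level was 6.23 ± 0.11 with IL17A and ADSC medium, 6.78 ± 0.13 with ADSC medium, 5.93 ± 0.04 with IL17A and 6.58 ± 0.09 in untreated cells (SD over 10 spots of 1 array). The spots of the IL17A array ran from 5.87 to 5.99 and those of the untreated array from 6.42 to 6.67. Those with IL17A and ADSC medium ran from 6.09 to 6.37 and those with ADSC medium from 6.49 to 6.95. The IL17A differences were -0.55 with and -0.65 without ADSC medium, 1.47-fold and 1.57-fold lower and under the 2-fold call. A second Notch1 probe, which abuts the first (chr2:26314830-26314889), gave -0.41 and -0.71. The ADSC medium difference against untreated cells was 0.20 by the first probe and -0.07 by the second, so the probes disagree on its sign.

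Notch3, the receptor best known from smooth muscle and pericytes, had log2 levels of 7.69 with IL17A and ADSC medium, 8.06 with ADSC medium, 8.26 with IL17A and 8.52 in untreated cells (1 spot, chr17:32257848-32257907, minus strand). Each agent went with a lower level whether or not the other was present. The IL17A differences were -0.36 with and -0.26 without ADSC medium. The ADSC medium differences were -0.57 with and -0.46 without IL17A. Each was at least 3 times the technical SD of 0.085, which comes from repeated spots of other probes at this level. The scanner software's error of the single Notch3 spot was larger, at 0.14 on each array before any difference was taken. Median scaling brought the IL17A difference without ADSC medium to -0.03. With both agents the level was 1.77-fold lower than in untreated cells (difference -0.83), the widest receptor difference of the 5 comparisons and still short of a call.

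Notch2 had 3 probes, all well above background on all 4 arrays. The probe with the highest mean (chr3:97953914-97953973) read log2 10.69 with IL17A and ADSC medium, 10.46 with ADSC medium, 10.54 with IL17A and 10.50 in untreated cells. The coding probe printed above read 4.61, 4.56, 4.33 and 4.19 in the same order, and the third (chr3:97952843-97952902) 8.01, 7.78, 7.84 and 7.71. No difference of any of the 3 probes passed 0.42, and the brightest probe's differences lay between -0.04 and 0.23. The sign of ADSC medium against untreated cells (-0.04) turned with 75th percentile scaling (0.02), median scaling (0.24) and the mean of probes (0.13). Those of both against ADSC medium (0.23) and both against IL17A (0.14) turned with median scaling (-0.03 and -0.08).

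The ligands had different patterns. Jag1, a Jagged ligand, was brighter on both arrays with ADSC medium, and Dll1, a Delta-like ligand, was well above background on most of its spots only with IL17A. Jag1 read log2 7.65 with IL17A and ADSC medium, 7.59 with ADSC medium, 6.83 with IL17A and 7.08 in untreated cells (chr2:136907433-136907492, minus strand). The ADSC medium difference was 0.82 with IL17A, 1.77-fold, and 0.51 without it, 1.42-fold, neither called. The IL17A difference was 0.06 with ADSC medium, a sign that turned under 1 of 8 settings, and -0.25 without it. The coding probe printed above was not well above background on any array and read at most 1.97, so the Jag1 values rest on 1 probe.

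Dll1 was read by 1 probe spotted 10 times (chr17:15504623-15504682, minus strand). With IL17A and ADSC medium 10 of 10 spots were well above background, with ADSC medium 3, with IL17A 10 and in untreated cells 0. The mean log2 level was 3.15 ± 0.25 with IL17A and ADSC medium, 2.35 ± 0.43 with ADSC medium, 4.18 ± 0.23 with IL17A and 1.28 ± 0.68 in untreated cells (SD over 10 spots, 9 on the untreated array, where 1 outlying spot was left out). Spots with IL17A ran from 3.65 to 4.47 and those of untreated cells from 0.18 to 2.26. Spots with IL17A and ADSC medium ran from 2.67 to 3.53 and those with ADSC medium from 1.38 to 2.90.

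Against untreated cells, Dll1 was at least 3.57-fold higher with IL17A, with the untreated level set at its array's limit of log2 2.34. With ADSC medium present, IL17A gave at least 1.6-fold, under the call. Dll1 was 2.03-fold lower with IL17A and ADSC medium than with IL17A alone (difference -1.02), at the edge of the call. That difference was -0.76 after scaling each array to its 75th percentile, -0.98 after scaling to its median and -0.18 after normexp background correction, and each of these ended the call. The normexp correction also ended the call of IL17A against untreated cells, at 0.35. All of these levels lie near the floor of the arrays, which ran from log2 2.34 to 2.74.

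**Figure D2:**
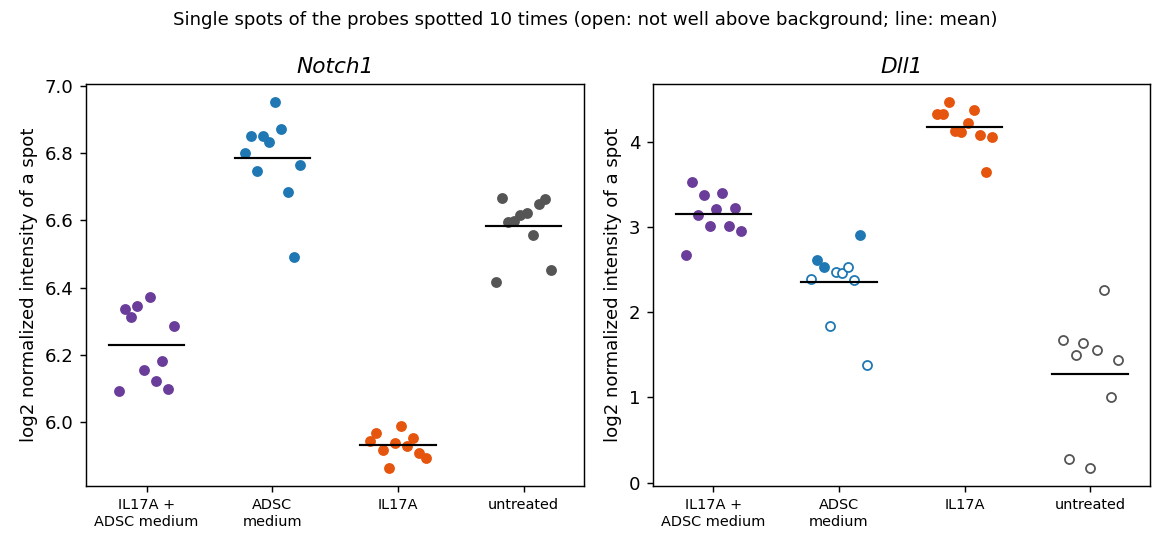
Log2 normalized intensity of single spots (vertical axis) of the Notch1 and Dll1 probes on the 4 arrays (horizontal axis), with the mean as a line. The 10 Dll1 spots with IL17A run from 3.65 to 4.47. The 9 untreated spots run from 0.18 to 2.26 and are open because they are not well above background.

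The bases before the Dll1 start are printed because Dll1 passed 2-fold in 2 comparisons. RefSeq on GRCm38.p6 lists 2 Dll1 starts, and the 250 bases before the farther upstream one lie at chr17:15376933-15377182 on the minus strand.
Dll1: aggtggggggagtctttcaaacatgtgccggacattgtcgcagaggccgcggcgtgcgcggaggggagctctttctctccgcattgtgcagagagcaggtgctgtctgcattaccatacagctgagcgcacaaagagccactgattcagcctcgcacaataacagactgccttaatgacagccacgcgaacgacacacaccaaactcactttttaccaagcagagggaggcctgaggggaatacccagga
Both strands were searched for TGGGAA (the core bound by Rbpj), CACGTG and CACNAG (boxes bound by Hey and Hes proteins) and the kappaB consensus, which occur in 21.6%, 6.02%, 36.7% and 3.9% of 32851 windows of this kind. None of these letters stands in the window before either Dll1 start, so no base is in capitals. Of the 10 genes 7 have such windows in the table. Hes1, Hey1 and Heyl have none there and were not searched. For this reason no Hes1 bases are printed, although Hes1 also passed 2-fold in 2 comparisons. Among the windows searched, TGGGAA stands in that of Hey2, CACGTG in that of Nrarp, the kappaB consensus in those of Notch2 and Nrarp, and CACNAG in those of Notch1, Notch2, Notch3 and Nrarp.

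Among the targets, Hes1 had the widest range of the genes measured on all 4 arrays, Hey1 a narrower one, and the other 3 were not measured. Hes1, a repressor that is a direct Notch target in many tissues, read log2 5.26 ± 0.15 with IL17A and ADSC medium, 5.86 ± 0.15 with ADSC medium, 3.87 ± 0.20 with IL17A and 4.39 ± 0.16 in untreated cells (scanner software error of 1 spot). In processed intensity these were 40.1, 54.1, 13.3 and 23.8 units. Both arrays with ADSC medium were higher than both without. Hes1 was 2.64-fold higher with IL17A and ADSC medium than with IL17A (difference 1.40) and 2.77-fold higher with ADSC medium than in untreated cells (1.47), where the technical SD of a difference was 0.23. Within a slide IL17A went the other way, with -0.60 in the presence of ADSC medium and -0.53 without it, under the 2-fold call. The second of these has a technical SD of 0.30, and over the 8 alternative settings it ranged from -0.74 to -0.11. With normexp correction the ADSC medium differences were 0.42 with IL17A and 0.59 without, which ended both calls.

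Hey1, a repressor related to Hes1 and also a Notch target, read log2 6.29 with IL17A and ADSC medium, 5.99 with ADSC medium, 5.86 with IL17A and 5.48 in untreated cells (chr3:8663432-8663491, minus strand). It was highest with both agents, 1.76-fold over untreated cells (difference 0.81), which was not called. Its IL17A differences, 0.30 with and 0.38 without ADSC medium, had the opposite sign to those of Hes1, and its ADSC medium differences were 0.43 with and 0.51 without IL17A. For Hey2 both probes and for Heyl both probes were not well above background on any array. Nrarp, an inhibitor induced by Notch that acts on its nuclear complex, read 1.69, 2.32, 1.93 and 1.09 in the same order of groups, all below the lowest signal well above background on its array.

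**Figure D3:**
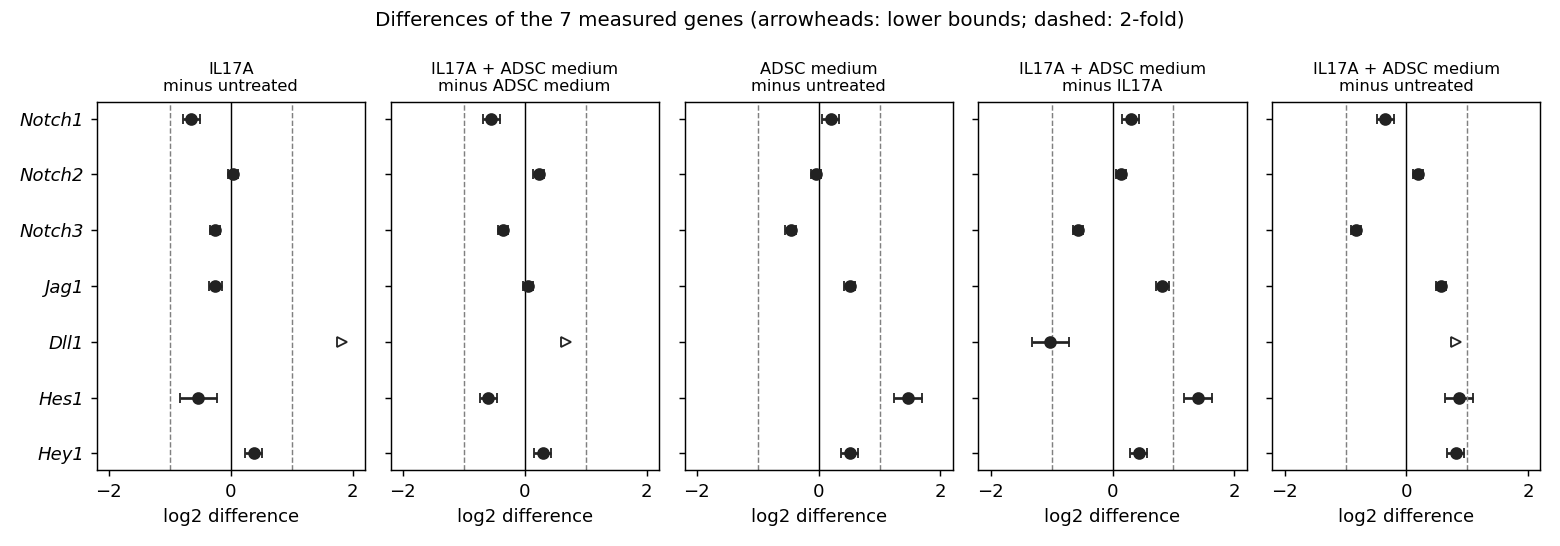
Log2 differences (horizontal axis) of the 7 measured Notch genes (vertical axis) in the 5 comparisons, with the technical SD of single spots as error bars. Arrowheads are lower bounds and dashed lines mark 2-fold. Hes1 passes it in both ADSC medium comparisons at matched IL17A (1.40 and 1.47). Dll1 passes it in IL17A against untreated cells (at least 1.83) and, just barely, in both agents against IL17A (-1.02).

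Set side by side, the IL17A differences with and without ADSC medium share no array. For Notch1, Notch3, Hes1 and Hey1 they were apart by 0.10, -0.10, -0.07 and -0.08 (with minus without). For Notch3, Hes1 and Hey1 this was no more than the technical SD of such a contrast of single spots (0.12, 0.33 and 0.19). The Notch1 levels are means of 10 spots, for which the single-spot SD of 0.19 is too wide, so the Notch1 contrast cannot be judged by it. For Notch2 and Jag1 they were apart by 0.19 and 0.31, more than the technical SDs of 0.12 and 0.14, while the spread between cultures was not measured. Both were read from 1 spot, whose scanner software error was 0.14 to 0.15 per array. These contrasts depend on the scaling. With median scaling the differences with and without ADSC medium were -0.54 and -0.03 for Notch3 and 0.20 and 0.49 for Hey1. For Notch2 they were then -0.03 and 0.29, and for Jag1 -0.12 and -0.06. The other Notch2 probes gave 0.05 and 0.14, and 0.23 and 0.13, under the main setting. For Dll1 both IL17A differences were bounds, at least 1.6-fold with and at least 3.57-fold without ADSC medium, and their difference could not be set.

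**Figure D4:**
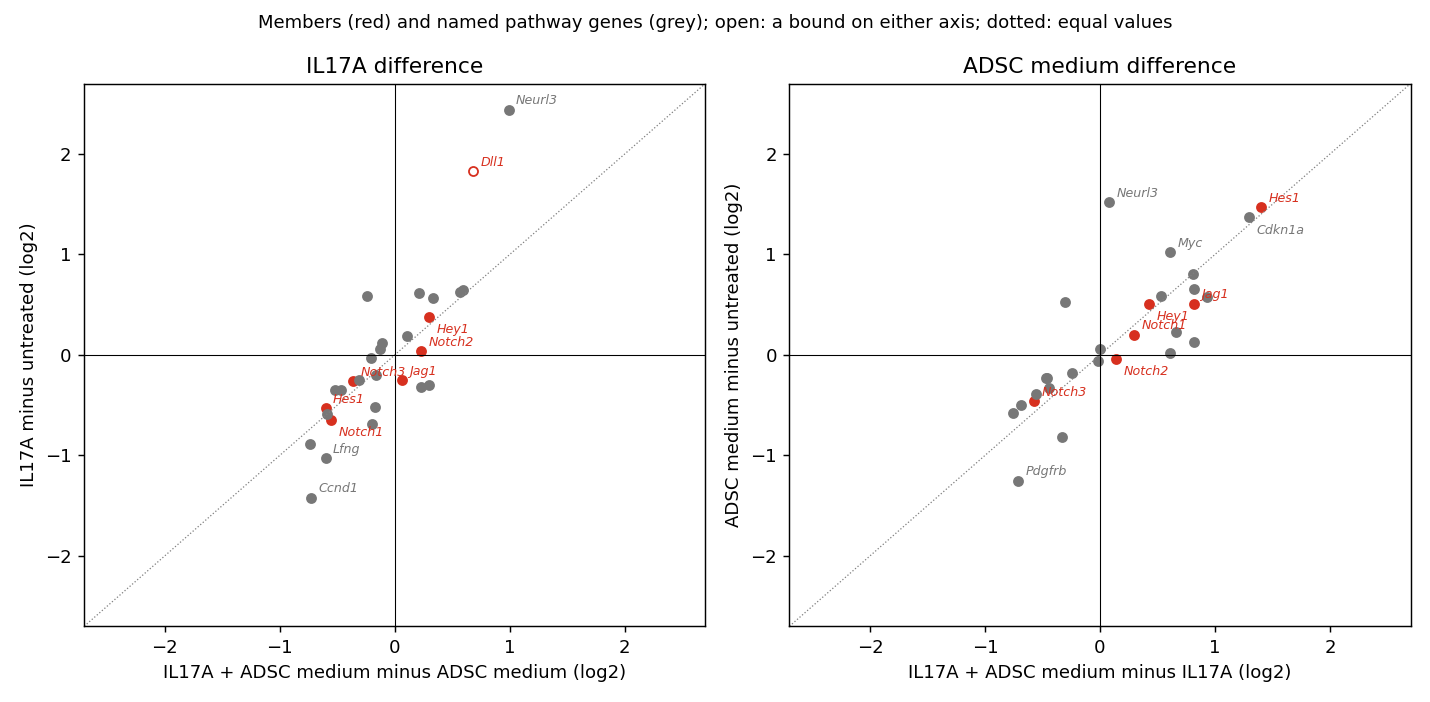
Log2 differences for IL17A (left, with ADSC medium on the horizontal axis and without it on the vertical axis) and for ADSC medium (right, with IL17A horizontal and without it vertical), for the measured Notch genes in red and the named other pathway genes in grey. Hes1 lies near the dotted line of equal values in both panels, at -0.60 and -0.53 on the left and 1.40 and 1.47 on the right.

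The rest of the pathway was read from 86 further genes in 7 lists, of which 85 were on the array and 72 were well above background in at least 1 group. With IL17A and ADSC medium against untreated cells, 4 of 69 measured were called higher and 2 lower, where 3.38% and 4.28% of all genes were. With IL17A and ADSC medium against ADSC medium it was 0 higher and 1 lower of 71 (2.86% and 1.82% of all genes), and against IL17A 1 higher and 1 lower of 70 (3.22% and 3.11%). ADSC medium against untreated cells gave 4 higher and 1 lower of 71 (2.45% and 2.97%), and IL17A against untreated cells 2 higher and 2 lower of 70 (2.17% and 2.29%). Their median difference lay between -0.06 and 0.01 in the 5 comparisons.

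In the list of other receptors and ligands, Dner, a Notch-binding membrane protein of neurons, was called. On its brightest probe it was well above background only with IL17A, at log2 4.24, and stood at 2.47, 2.18 and 2.30 with both agents, with ADSC medium and in untreated cells. It was at least 3.73-fold higher with IL17A than in untreated cells and at least 3.41-fold lower with both than with IL17A. With normexp correction the differences were 0.21 and -0.23, which ended both calls, and the mean of its probes ended that against untreated cells. Its second probe went against the first, being well above background in untreated cells and not in any treated group. For IL17A against untreated cells it was given 0.00, the value set where a dim side would stand above the side well above background. Mfap2, a microfibril protein that binds Notch1, differed by 0.93 between both and IL17A, and by at least 0.28 on its second probe, which was dim with IL17A.

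Of the 10 genes of receptor cleavage, 9 were measured and none was called. Adam10, the protease that makes the ligand-dependent cut, was at -0.49 with both agents against untreated cells. Aph1b, a subunit of gamma-secretase, was at -0.91 in that comparison on its brightest probe, and at -0.58 and -0.72 on its other 2. Among the fringe and other sugar transferases, which tune which ligand a receptor answers, Lfng was 1.03 lower on the log2 scale with IL17A than in untreated cells and was called. The IL17A difference of Lfng with ADSC medium was -0.60, and its second probe gave -0.58 without the medium, under the call. Median scaling (-0.92), normexp correction (-0.48) and the mean of its probes (-0.81) each ended the Lfng call.

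In the trafficking and ubiquitin list, Neurl3, related to the neuralized ligases that drive ligand uptake, read log2 4.97 with both agents, 3.98 with ADSC medium, 4.89 with IL17A and 2.45 in untreated cells. It was higher than untreated in all 3 treated groups, by 2.51, 1.52 and 2.44 in that order, and the untreated value lay just over the array's limit. Its 2 probes disagreed on both agents against IL17A, at 0.08 and 1.26. With normexp correction the 3 Neurl3 differences were 0.57, 0.27 and 0.54, which ended all 3 calls. Dtx4, a Deltex ligase, was lower with both agents than in untreated cells by its 3 probes (-1.02, -1.16 and -1.04), a call that normexp correction ended (-0.89). Neurl1b, which like Hes1 was higher in the groups with ADSC medium and lower with IL17A, had ADSC medium differences of 0.81 with and 0.81 without IL17A and IL17A differences of -0.59 and -0.59. Of 24 genes of the nuclear complex, 23 were measured in each comparison and none was called. Rbpj itself read 10.36, 10.04, 10.84 and 10.27 in the order above, with IL17A differences of 0.33 with and 0.57 without ADSC medium. Tle6, a Groucho-related corepressor, had 0.57 and 0.63, and Tle1 an ADSC medium difference of -0.76 with IL17A on its brightest probe, which 1 of its other 2 probes did not show (0.06).

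Of 8 further Hes-family and related repressors, Hes7, the segmentation clock repressor, was well above background only with ADSC medium, at log2 3.54. It was called in both comparisons with that array, -1.14 for both agents against ADSC medium and 1.09 for ADSC medium against untreated cells, each a bound. Both calls ended with 75th percentile scaling (-0.87 and 0.85) and with normexp correction (-0.15 and 0.17). Among 12 genes known as Notch targets in other cells, Cdkn1a, a cell cycle inhibitor, was higher with ADSC medium by 1.30 with and 1.37 without IL17A. Myc, a growth regulator, was higher by 1.02 with ADSC medium and 1.23 with both against untreated cells, and Snai1, a mesenchymal repressor, by 1.18 with both. The other 2 Myc probes read 0.92 and 0.93 with ADSC medium, under the call, and passed 2-fold with both. Ccnd1, the G1 cyclin, was lower with IL17A by -1.42, and by -0.73 with ADSC medium present. Pdgfrb, the platelet-derived growth factor receptor of stellate cells, was at -1.03 with both and -1.25 with ADSC medium against untreated cells, and median scaling ended both calls. Tagln, a smooth muscle actin-binding protein, had IL17A differences of -0.74 with and -0.89 without ADSC medium and was not called.

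The genes whose 4 levels ran most like those of Hes1, by the Euclidean distance of centred log2 profiles among 12092 genes with a RefSeq accession, were Lyn, P2rx7 and Sema7a, at distances of 0.16, 0.18 and 0.21. Lyn, a Src-family kinase, read 5.65 with both agents, 6.04 with ADSC medium, 4.24 with IL17A and 4.72 in untreated cells. P2rx7, an ATP-gated channel, read 6.52, 6.91, 5.08 and 5.67, and Sema7a, a membrane-anchored semaphorin, 9.93, 10.38, 8.31 and 9.09. The distance rests on 4 values per gene and describes these arrays.

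The authors' deposited table of probes higher with IL17A than in untreated cells, 861 in number, holds Dll1 and Nrarp among the Notch genes, and Dner, Neurl3 and Tle6 among the other pathway genes. Nrarp was not well above background on either array here. The authors' deposited table of 1193 probes higher with IL17A than with IL17A and ADSC medium holds Dll1, with Dner, Rbpj, Tle1, Hes2 and Pdgfrb. The threshold behind these lists was not given in the sources used here.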

How the data were processed

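RNA of 4 IMS/N cultures, 1 per group, was labelled with Cy3 and hybridised to 4 one-colour Agilent mouse arrays. Per the file headers, the deposited intensity values are background-corrected spot signals from Feature Extraction on build mm9, not normalized between arrays. The deposited 0 or 1 flags, read as score values, mark outlier spots and spots well above background, per the file headers. The submitters' processing notes name R 3.5.1, and the series text states quantile normalization. The authors' deposited gene lists hold probe names and no values. Here outlier spots (91 to 126 per array) were dropped, log2 intensities were quantile normalized (limma 3.58.1, R 4.3.3), spots of a probe were averaged, and the brightest probe by mean level stood for its gene. A probe with several spots counted as well above background where a share of them above 0.5 were. Of 16 member probes 14 were named by the same symbol through a RefSeq accession and 2 had none. The number of arrays limits the precision. The 10 genes and all gene lists were chosen with earlier results of these data known. Beyond the 10, the text names list genes past 2-fold in any comparison and those among the 2 largest for IL17A against untreated cells or for both agents against IL17A. Sequences are from the array files and RefSeq (GRCm38.p6). The 2-fold call, but not the normalization, was tested on simulated data, with changes placed only in genes brighter than Dll1 and Hes1. Alternatives covered scaling, background correction, filters, probes and the threshold.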

Additional observations from a re-analysis of the deposited data

Results flagged for a closer look

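Some named pathway genes had differences of opposite sign in the presence and absence of the other agent, with 1 array on each side, so the difference between them was not tested. Adam17, a sheddase that can cut Notch receptors, had an IL17A difference of -0.11 with ADSC medium and 0.12 without it. Rfng, a fringe sugar transferase, had an IL17A difference of -0.24 with ADSC medium and 0.59 without it, and an ADSC medium difference of -0.30 with IL17A and 0.53 without it. Dtx3, a Deltex ligase, had an IL17A difference of 0.30 with ADSC medium and -0.30 without it, while its second probe gave -0.28 and 0.09. Pdgfrb had an IL17A difference of 0.23 with ADSC medium and -0.32 without it, but with median scaling both were below 0 (-0.03 and -0.08). All are log2 values.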

How the results depend on the processing

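The counts of members called at 2-fold were 1 for IL17A against untreated cells, 0 for both agents against ADSC medium, 1 for ADSC medium against untreated cells, 2 for both agents against IL17A and 0 for both agents against untreated cells. With normexp correction at an offset of 50, which by construction shrinks differences of dim probes, they were 0 for IL17A against untreated cells, ADSC medium against untreated cells and both agents against IL17A. Requiring signal well above background on all 4 arrays removes Dll1 and left 0 for IL17A against untreated cells and 1 for both agents against IL17A. Of the 14487 genes that met this filter, 205 were called higher and 203 lower in the first comparison, and 374 and 337 in the second. Scaling by the 75th percentile or the median also left 1 (Hes1) for both agents against IL17A. Without a filter on dim probes the count was 1 (Hey2, lower) for both agents against ADSC medium, 3 (Dll1, Hes1, Nrarp) for ADSC medium against untreated cells and 1 (Dll1) for both agents against untreated cells. Of all 26704 genes, 1109 were then called higher and 953 lower, 1111 and 1185, and 1254 and 1412, in the same order. At 1.5-fold it was 2 for IL17A against untreated cells (Dll1 higher, Notch1 lower), 2 for both agents against ADSC medium (Dll1 higher, Hes1 lower), 3 for both agents against IL17A (Jag1 and Hes1 higher, Dll1 lower) and 4 for both agents against untreated cells (Dll1, Hes1 and Hey1 higher, Notch3 lower). The share of all genes past 1.5-fold is not given here, so these counts cannot be set against it. Over 8 alternatives the ADSC medium difference of Hes1 ranged from 0.42 to 1.58 with IL17A and from 0.59 to 1.52 without it. Median scaling moved the median of all genes by 0.199, -0.206, 0.221 and -0.173 in these comparisons, in the order above up to both agents against IL17A. Genes called higher and lower were 345 and 363 for IL17A against untreated cells by quantile normalization, 263 and 534 by the 75th percentile, 411 and 324 by the median and 97 and 66 with normexp. For both agents against ADSC medium they were 460 and 293, 724 and 172, 403 and 327, and 76 and 22. For ADSC medium against untreated cells they were 394 and 478, 269 and 654, 467 and 401, and 49 and 110, and for both agents against IL17A 511 and 494, 775 and 372, 445 and 585, and 73 and 122. No paired analysis was possible because each group has 1 array, and its replicate number only names it.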
